A study of Mus musculus with 10 samples.

Results

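The genes examined were 7 components of the leukaemia inhibitory factor (LIF) pathway, Lif, Lifr, Il6st, Jak1, Stat3, Socs3 and Cish. These genes were chosen by name, with earlier results of these data known, and matched to Ensembl gene IDs. They make up 7 of the 22713 genes in the deposited mRNA-seq tables, and each was followed through all 8 mRNA libraries of mouse embryonic stem (ES) cells and, at its promoter, through 2 ChIP-seq libraries. All 7 passed the filter on low values, a CPM (reads on the gene, scaled to the size of the library) above 1 in at least 1 library of a table.

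Pontinf/f; CreER ES cells, which carry floxed alleles of the Pontin gene and a tamoxifen-activated Cre recombinase, gave 1 untreated library (WT) and 1 library each at 3 and 4 days after 4-hydroxy tamoxifen (OHT 3D and OHT 4D). ZHBTc4 ES cells, a line in which tetracycline (Tc) shuts off Oct4, gave 1 library at 2 days of Tc (Tc 2D), 2 libraries infected with a control shRNA lentivirus for 4 days (shRNA control) and 2 infected for 4 days with an shRNA lentivirus against the lincRNA linc1253 (shlinc1253). Untreated ZHBTc4 cells gave the Pontin and the GFP antibody ChIP-seq libraries, 1 each. The study's comparison for Tc 2D was the WT library, which is of the other cell line, and no untreated or untransduced ZHBTc4 mRNA library was analysed here. The methods describe a medium with added LIF for ES cells, with or without fibroblast feeders, and the labels do not say which libraries had feeders.

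LIF is the cytokine added to mouse ES cell medium to keep the cells undifferentiated. It binds its receptor LIFR (Lifr), which pairs with gp130 (Il6st), the signalling chain shared by the interleukin-6 family. The kinase JAK1 sits on these chains and phosphorylates STAT3, which enters the nucleus and activates genes such as Klf4, Tfcp2l1, Gbx2 and Socs3. SOCS3 then binds gp130 and JAK and shuts the signal off, while CIS (Cish) is a related inhibitor best known as a target of STAT5. Transcript levels do not measure the phosphorylation steps of this pathway.

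The depleted genes checked the labels. Ruvbl1, which encodes Pontin, fell from 198 CPM in WT to 33.3 and 50.9 CPM in the OHT 3D and OHT 4D libraries. It was at 85.0 CPM at Tc 2D and between 148 and 188 in the shRNA libraries. The single Tc 2D library was thus below WT and every shRNA library in Ruvbl1. The paper, by quantitative RT-PCR and immunoblot, reports no significant change of Pontin after Oct4 depletion. Pou5f1, which encodes Oct4, was at 21.1 CPM at Tc 2D, against 301 in WT and between 582 and 708 in the 4 shRNA libraries. Summed over 10 ES cell markers, the level was between 3273 and 3626 CPM in WT and both OHT libraries, 472 at Tc 2D and between 5862 and 6615 in the shRNA libraries. Such a sum is carried by the highest markers, and falls of single ES cell markers were not counted. Between 17187595 and 37951742 reads on genes lay behind each library. The first 4 libraries and the 4 shRNA libraries were normalised in separate tables, so tests were made within a table. Levels set across tables are CPM as deposited, except where a common median-ratio scale is named.

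Levels were first set side by side per length, as CPM per kb of merged exons, averaged over the 8 libraries. Socs3, the feedback inhibitor, was highest at 49.7 CPM per kb, followed by Stat3 at 15.0, Il6st at 13.6, Jak1 at 12.2, Lifr at 6.19, Lif at 2.28 and Cish at 0.451. Socs3 was above Stat3 in 8 of 8 libraries, and Lif above Cish in 8 of 8, with ranges that did not overlap. The ranges of all other neighbours in the order overlapped, and Stat3 was above Il6st in 6 of 8 libraries and Il6st above Jak1 in 5 of 8. With the length of the longest transcript in place of merged exons, Jak1 moved above Il6st. Lif varied most, with a 10.6-fold difference between its highest and lowest library, against 1.82-fold for Jak1 and 2.95-fold for Lifr. On the common median-ratio scale the order of the means was the same, with 12.1-fold for Lif, 1.81-fold for Jak1 and 2.59-fold for Lifr.

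**Figure D1:**
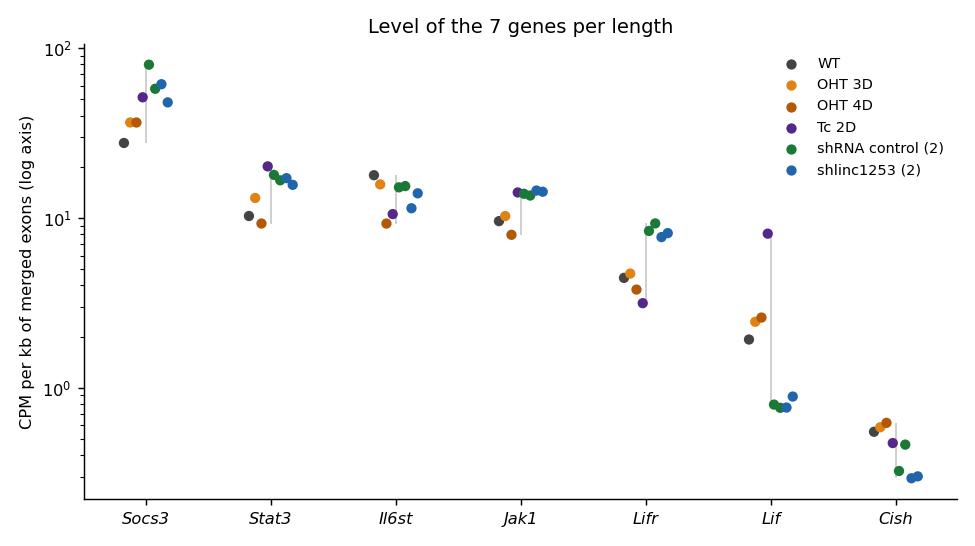
Level of each gene in each of the 8 libraries in CPM per kb of merged exons, on a log axis, 1 point per library, with a grey line from the lowest to the highest. Socs3 lies above all other genes in each library, and the Tc 2D library lifts Lif above Lifr.

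The ligand had the widest range of the 7. Lif was at 35.1 CPM in the Tc 2D library, against 8.36 in WT and 10.6 and 11.3 in the OHT 3D and OHT 4D libraries, and lay between 3.31 and 3.86 CPM in the 4 shRNA libraries. The Oct4-depleted library thus held the highest level and no shRNA library reached that of WT. Lif lies on chr11:4157560-4172517 of NCBIM37, plus strand.

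For the receptor chains, Lifr (chr15:7079559-7147489, plus strand) was at 45.8 CPM in WT, 48.5 and 39.1 in the OHT 3D and OHT 4D libraries, and 32.5 in Tc 2D. In the shRNA libraries it was at 86.5 and 95.8 in the controls and at 79.6 and 84.0 in shlinc1253. Every library of the second table was above every library of the first. Il6st (chr13:113265216-113297068, plus strand) was at 92.8 CPM in WT, 81.9 and 48.2 in the OHT 3D and OHT 4D libraries, and 54.8 in Tc 2D. Its controls were at 78.7 and 80.1 CPM and its shlinc1253 libraries at 59.3 and 72.6. Il6st was thus highest in WT and lowest at OHT 4D, and Lifr was highest in a control library and lowest at Tc 2D.

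For the kinase and its transcription factor, Jak1 (chr4:100824972-100937887, minus strand) was at 69.1 CPM in WT, 74.1 and 57.4 in the OHT 3D and OHT 4D libraries, and 102 in Tc 2D. It lay between 97.8 and 105 CPM in the 4 shRNA libraries. Stat3 (chr11:100746412-100800854, minus strand) was at 97.7 CPM in WT, 125 and 88.2 in the OHT 3D and OHT 4D libraries, and 191 in Tc 2D. It lay between 149 and 171 CPM in the shRNA libraries. For both genes, all ZHBTc4 libraries, depleted of Oct4 or not, were above the 3 libraries of Pontinf/f; CreER cells.

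Of the inhibitors, Socs3 (chr11:117827393-117831361, minus strand) was at 79.8 CPM in WT, 105 in each OHT library and 148 in Tc 2D. Its shRNA controls were at 231 and 166 CPM and its shlinc1253 libraries at 177 and 138, the widest gap between replicates among the 7 genes. Cish (chr9:107198357-107205115, plus strand) stayed between 1.88 and 3.99 CPM in all 8 libraries, on 44 to 91 reads. Between the 2 control replicates the absolute log2-fold-change was 0.47 for Socs3, 0.37 for Cish and at most 0.15 for the other 5 genes. None passed 0.58, the threshold used below for single libraries, where 3.13% of all genes tested did.

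**Figure D2:**
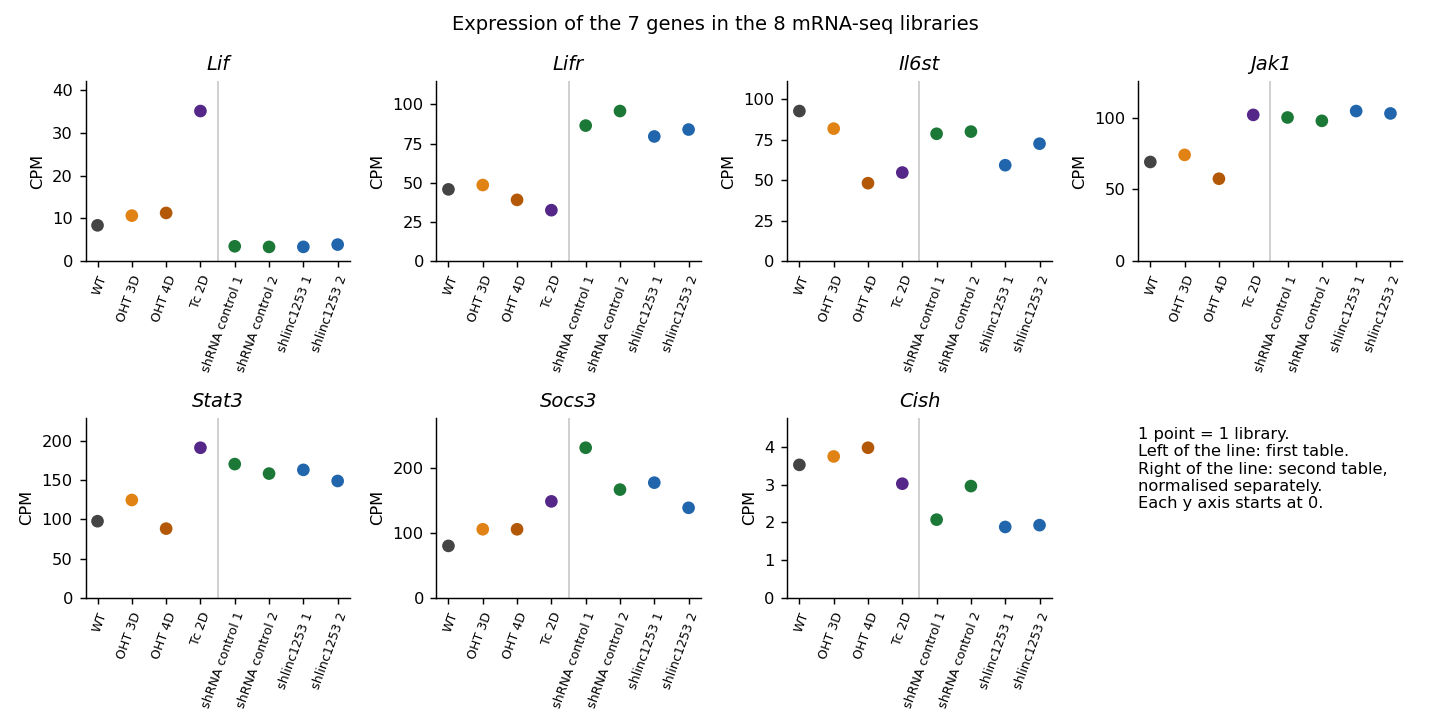
CPM of the 7 genes in the 8 mRNA libraries, 1 point per library and 1 panel per gene, each y axis starting at 0. The grey line separates the 2 tables, which were normalised separately. Lif stands out at Tc 2D, and Lifr is higher in every library right of the line than in any left of it.

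To ask whether loss of Pontin touched the pathway, each OHT library was compared with WT. At OHT 3D 0 of the 7 genes passed an absolute log2-fold-change of 0.58 (1.5-fold) on the scale of log2(CPM + 1), where 6.01% of 13449 genes tested were called up and 5.88% down (11.9% in all). At OHT 4D 1 of the 7 was called, Il6st, where 6.48% of genes were up and 8.89% down (15.4% in all). Both comparisons share the WT library. Il6st, the shared signalling chain gp130, had a log2-fold-change of -0.93 at OHT 4D, after -0.18 on the day before. The exact 95% counting interval of the OHT 4D value, from the reads of the 2 libraries, ran from -1.05 to -0.84. Between the OHT libraries themselves 0 of the 7 were called up and 1 down, again Il6st (-0.75), where 5.47% of genes were up and 8.84% down, and the other 6 genes changed by between -0.49 for Stat3 and 0.08 for Lif. Each of these comparisons rests on 1 library per condition, so there is no replicate check and no p-value, and intervals cover counting error only.

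Below the threshold, the feedback inhibitor Socs3 had a log2-fold-change of 0.40 at both time points, with intervals from 0.31 to 0.49. This is smaller than the 0.47 between its replicate control libraries of the other line. Lif had log2-fold-changes of 0.31 and 0.39, and Cish of 0.07 and 0.14. Stat3 had 0.35 and -0.15, Jak1 0.10 and -0.26, and Lifr 0.08 and -0.22. All 3 of the latter were thus above WT in the first library and below it in the second.

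Among the 49 further genes of the pathway, listed by role with earlier results of these data known, 44 passed the filter. At OHT 3D 5 were called up and 2 down, 11.4% and 4.55% where 6.01% and 5.88% of all genes were, with a median of 0.05 against -0.02 over all genes tested. At OHT 4D 6 were up and 1 down, 13.6% and 2.27% where 6.48% and 8.89% of all genes were, with a median of 0.01 against -0.00. Of the 10 listed targets of LIF and STAT3 in ES cells, 2 were up and 0 down at OHT 3D, and 4 up and 0 down at OHT 4D. With a threshold of 1, 2 of the 10 were up at OHT 3D and 1 at OHT 4D, where 1.90% and 2.38% of all genes were. Gbx2, a homeobox target of STAT3, was at 10.4 CPM in WT and at 30.4 and 22.5 in the OHT libraries, a log2-fold-change of 1.47 and 1.05. Myc, the growth-promoting transcription factor, had 1.47 and 0.96, and Junb and Bcl3 had 0.82 and 0.78 at OHT 4D. Klf4, a pluripotency factor also among the listed targets, was at 257, 291 and 293 CPM and was not called.

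Of the other receptors and ligands of the gp130 family, Cntfr, the receptor of ciliary neurotrophic factor, had log2-fold-changes of 1.29 and 1.43 in the OHT 3D and OHT 4D libraries. At OHT 3D the phosphatase gene Ptpn6 (-0.69) and the interleukin-11 receptor gene Il11ra1 (-0.59) were down, and Stat2 was down at OHT 4D (-0.81). Beside these, the summed level of 12 fibroblast markers was 28.4 CPM in WT and 229 and 278 in the OHT 3D and OHT 4D libraries, and 10 and 11 of the 12 were past the same threshold upward. Of these markers Lum was at 0 in WT and OHT 3D, and no other was at 0 in these 3 libraries. The summed level of 10 trophectoderm markers was 55.9 CPM in WT and 134 and 305 in the OHT libraries, and 6 and 7 of the 10 were past the threshold upward. That of 9 primitive endoderm markers was 92.8, 185 and 236 CPM, with 4 and 7 past it. Bulk RNA cannot tell a change in the number of such cells from a change in RNA per cell, and their part in the values above was not tested.

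To ask the same of Oct4 loss, Tc 2D was compared with WT, as the study did. Of the 7 genes 3 were called up, Lif, Stat3 and Socs3, and 1 down, Il6st, where 23.9% of all genes tested were up and 25.8% down (49.8% in all). Lif had a log2-fold-change of 1.95 (counting interval 1.84 to 2.30), Stat3 of 0.96, Socs3 of 0.89 and Il6st of -0.75. Jak1 (0.55), Lifr (-0.48) and Cish (-0.17) were not called. With median-ratio scaling of the table Jak1 was called (0.60), which made 4 of the 7 up, where 25.9% of all genes were up and 24.7% down.

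The same library was then set against the mean of the 2 shRNA controls, which are of its own cell line but carry a lentivirus and come from the other table. On the common median-ratio scale 1 of the 7 genes was called up, Lif, and 1 down, Lifr, where 24.6% of genes were up and 22.3% down (47% in all). Lif was at 43.4 CPM on this scale against 3.74 and 3.60 in the controls, a log2-fold-change of 3.25. Lifr was at 40.2 against 93.6 and 104, a log2-fold-change of -1.28. Stat3 (237 against 185 and 172) had 0.41, Jak1 0.23, Cish 0.35 and Il6st -0.34, all short of the threshold. Socs3 changed sign, with 183 CPM against 250 and 181, so that the Tc 2D library lay between the 2 controls and the log2-fold-change was -0.23. With the CPM as deposited, which set the tables apart from this scale by 0.16 on average (log2), Lif (3.04) and Lifr (-1.46) were again called. Of all genes, 18.3% were up and 28.7% down with that CPM.

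The 2 sets of controls themselves differed. On the common scale the shRNA controls were higher than WT in Socs3 (log2-fold-change 1.13) and Lifr (0.81) and lower in Lif (-1.26), and 29.7% of all genes tested passed the threshold in either direction. Cell line, lentivirus, table and sequencing run all differ between them and cannot be told apart. A change past the threshold at Tc 2D against both controls was seen for Lif alone among the 7 genes.

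**Figure D3:**
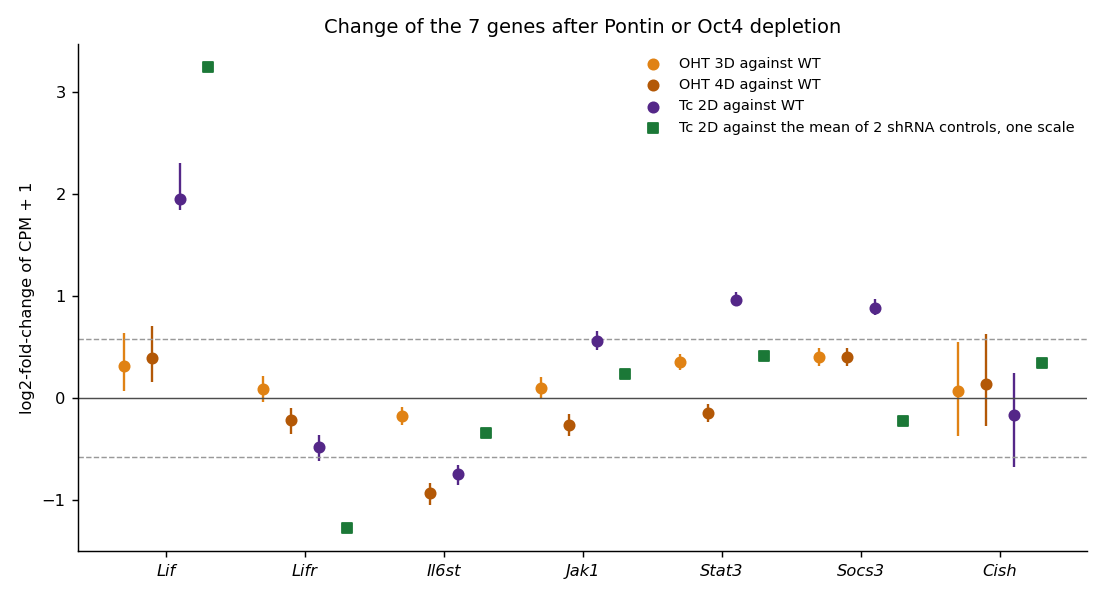
Log2-fold-change of CPM + 1 for the 7 genes. Circles are single-library comparisons with WT, with exact 95% counting intervals of the read ratio as lines (drawn without the pseudocount, so a point can lie near an end). Green squares set Tc 2D against the mean of the 2 shRNA controls on a common scale, and dashed lines mark 0.58 either way. Lif is the gene past the line with both controls, and Socs3 lies on opposite sides of 0 with them.

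Most of the listed targets downstream of STAT3 were lower in the Oct4-depleted library with either control. The targets were listed with earlier results of these data known, so their shares are a description and no test. Against WT, 0 of the 10 listed LIF and STAT3 targets were up and 7 down at Tc 2D, where 25.8% of all genes were down. Their median was -0.74, against -0.06 over all genes tested. With a threshold of 1, 3 of the 10 were down, where 12.6% of all genes were. Against the shRNA controls on the common scale, 0 were up and 6 down, where 22.3% of all genes were down, with a median of -0.71. Klf4 was at 257 CPM in WT, 16.3 at Tc 2D and 226 and 208 in the controls, a log2-fold-change of -3.90 with WT and -3.48 with the controls. Gbx2 (-2.06 and -3.16), Tfcp2l1, a factor that maintains naive pluripotency (-1.40 and -1.37), Klf5 (-0.76 and -1.57), Mcl1, an anti-apoptotic protein (-0.85 and -0.63), and Junb (-0.72 and -0.80) were down with both. Pim1 was down with WT (-0.64) and had 0.21 with the controls. Socs3, also activated by STAT3 but counted among the 7 genes and not in this list, was up with WT (0.89) and had -0.23 with the controls. Several of these targets, Klf4 and Klf5 among them, are also known targets of Oct4, and the list does not separate the 2 factors.

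Of the 44 listed genes that passed the filter, 6 were up and 13 down at Tc 2D against WT, 13.6% and 29.5% where the shares over all genes were 23.9% and 25.8%. Against the shRNA controls 4 were up and 12 down, 9.09% and 27.3% where the shares over all genes were 24.6% and 22.3%. Socs2, an inhibitor best known for growth hormone signalling, was at 79.9 CPM in WT, 5.96 at Tc 2D and 30.9 and 47.9 in the controls, with log2-fold-changes of -3.54 and -2.39. Stat4, which mediates interleukin-12 signals in lymphocytes, had -2.20 and -2.71. The phosphatase gene Ptpn6 had -0.95 and -1.23, Pias2 -0.98 and -1.09 and the adaptor Grb2 -0.59 and -0.91. The call of Grb2 against WT was lost with median-ratio scaling of the table or a pseudocount of 3. Upward with both controls was the ligand Clcf1 (0.73 and 1.19, on 1.69 CPM). Called with the shRNA controls on the common scale and not with WT were Il11ra1 (1.18) and Ctf1 (0.67), up, and Il27ra (-0.72), down. Jak2 was up with WT (1.76) and with the controls on the common scale (0.64), but not with the controls as deposited (0.46). Jak3, Il6ra and Cntfr were up against WT and not against the shRNA controls, at 0.80, 1.21 and 0.67, and had 0.083, -0.0058 and 0.45 with the latter. Pias3 had -0.77 and 0.45. All 10 trophectoderm markers were past the threshold upward at Tc 2D against WT, with a summed level of 462 CPM against 55.9 in WT and between 57.0 and 69.2 in the shRNA libraries. Of the 9 primitive endoderm markers 5 were past it, with 310 CPM, and of the 12 fibroblast markers 1, with 18.5 CPM and Acta2, Postn, Dcn and Lum at 0. The part of such cells in these values was not tested.

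**Figure D4:**
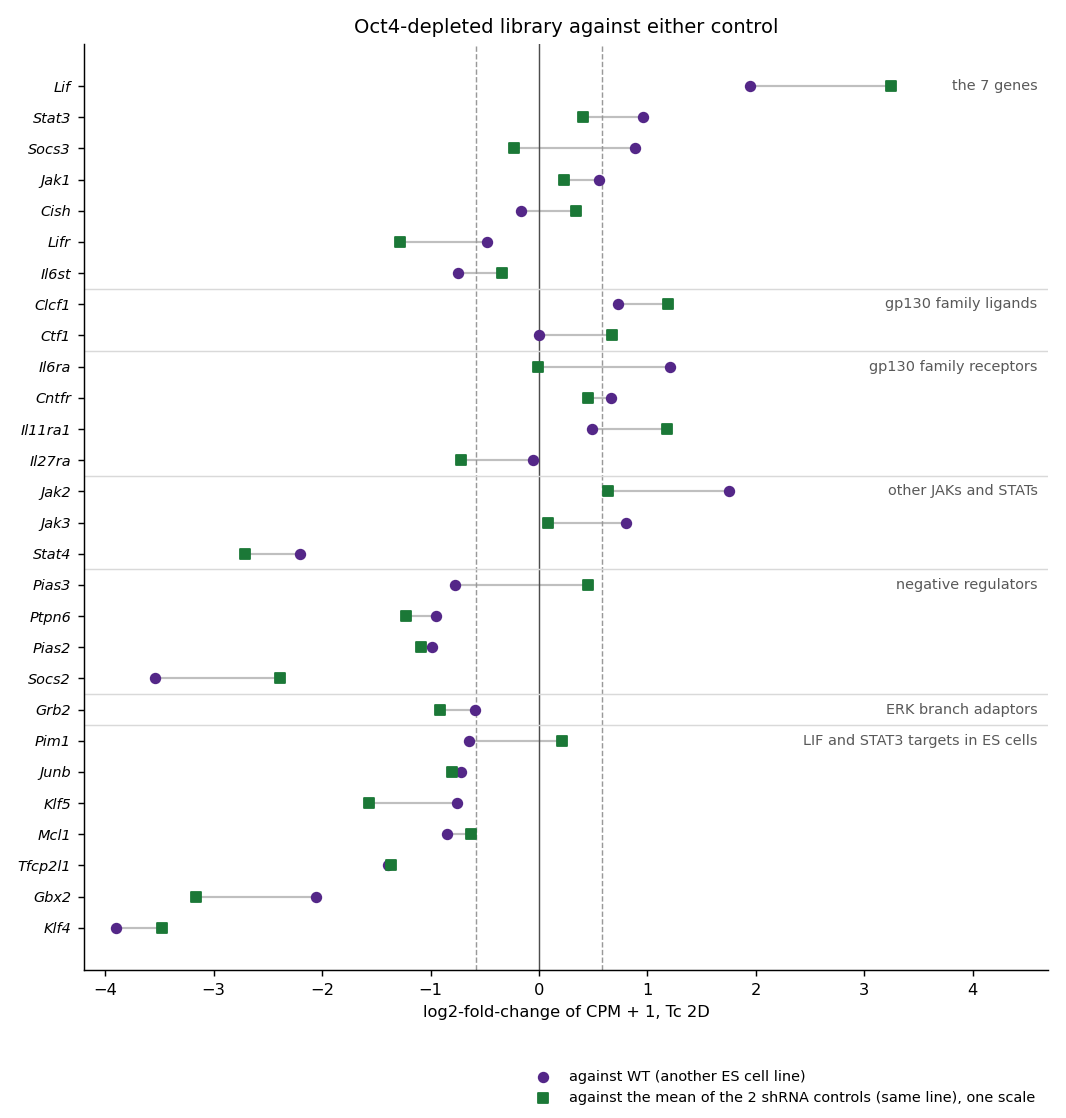
Log2-fold-change of CPM + 1 of the Tc 2D library against WT (purple circles) and against the mean of the 2 shRNA controls on a common scale (green squares), for the 7 genes and for named listed genes past 0.58 either way with at least 1 control. Grey lines join the 2 values of a gene, and dashed lines mark 0.58. Klf4, Gbx2, Socs2 and Stat4 lie far left with both controls, whereas Il6ra, Socs3 and Pias3 move across or onto 0.

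To ask whether knockdown of linc1253 touched the pathway, the 2 shlinc1253 libraries were compared with the 2 controls by limma with trend, adjusted over 13407 genes. Of the 7 genes 0 were called up and 0 down at an adjusted p of 0.05, where 0% of all genes tested were called in either direction. At an unadjusted p of 0.05 the fit called 999 genes (7.45%), 0 of them among the 7. On reads recovered from the CPM, edgeR's quasi-likelihood test called 0 genes (1010 at an unadjusted p of 0.05) and DESeq2 called 50 (0.373%), with 0 of the 7 by either (DESeq2 gave no adjusted p for 2 of the 7). Labels give the 2 libraries of a group as replicates without saying whether cultures were separate, so the p-values measure the spread between these libraries. Same-numbered libraries deviated together (correlation 0.67), though the labels do not say that they were made together. With the number as a block, limma called 2 of the 7 down, Il6st and Socs3, where 14.6% of all genes were called in either direction. Of the 13407 genes tested, 933 were up and 1027 down in that fit.

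Il6st was at 79.4 ± 0.947 CPM (SD, n = 2) in the controls and at 66.0 ± 9.41 in shlinc1253, a log2-fold-change of -0.27 (SE 0.12, adjusted p = 0.682, limma). Socs3 was at 198 ± 45.5 and 158 ± 27.3 CPM, a log2-fold-change of -0.32 (SE 0.18, adjusted p = 0.729, limma), and the libraries of the 2 groups overlapped. Within each replicate number the shlinc1253 library was the lower for Socs3, 177 against 231 CPM and 138 against 166. Lifr was at 91.1 ± 6.57 and 81.8 ± 3.12 CPM, a log2-fold-change of -0.15, and Cish at 2.52 ± 0.631 and 1.91 ± 0.0339, a log2-fold-change of -0.27. Stat3 (-0.08), Jak1 (0.07) and Lif (0.06) differed by less than 0.1 on this scale. Adjusted p-values of the 7 genes ran from 0.682 to 0.944 in limma. For Il6st, Lifr and Cish both shlinc1253 libraries lay below both controls and for Jak1 both lay above, as was so for 19.2% and 18.8% of all genes tested.

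Among the 42 listed pathway genes tested, 0 were called in either direction by limma, with a median log2-fold-change of -0.05 against -0.00 over all genes. At an unadjusted p of 0.05 in limma, 4 of the 42 were up and 1 down, where 496 and 503 of all 13407 genes were. Gbx2 was at 23.8 and 26.1 CPM in the controls and 38.9 and 42.8 in shlinc1253, a log2-fold-change of 0.69 (SE 0.11, adjusted p = 0.469, limma), and was the listed gene that DESeq2 called (adjusted p = 0.00687). Cntfr (0.69), Myc (0.50) and Klf4 (0.25) were the other genes up at the unadjusted threshold, and Jak3 (-0.59) was down.

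Whether Pontin lay at these promoters was asked of the ChIP-seq reads, counted over windows running from 2.5 kb before to 500 b past the 5′ end of each gene in the NCBIM37 annotation and scaled by library size. Promoters are shown first for Socs3 and Cish, since these 2 of the 7 held a STAT element, TTCNNNGAA (its reverse complement is of the same form). Capitals mark that element in the 250 bases before and 50 after a start, read 5′ to 3′ on the strand of the gene. The first 2 are RefSeq promoters (sequences of GRCm38.p6), each found base for base at a single place on its chromosome in NCBIM37, at chr11:117830631-117830930 (minus strand) for Socs3 and chr9:107198740-107199039 (plus strand) for Cish. The last is read from NCBIM37 around the most upstream coding transcript of Socs3, at chr11:117830451-117830750 (minus strand).
Socs3, RefSeq start: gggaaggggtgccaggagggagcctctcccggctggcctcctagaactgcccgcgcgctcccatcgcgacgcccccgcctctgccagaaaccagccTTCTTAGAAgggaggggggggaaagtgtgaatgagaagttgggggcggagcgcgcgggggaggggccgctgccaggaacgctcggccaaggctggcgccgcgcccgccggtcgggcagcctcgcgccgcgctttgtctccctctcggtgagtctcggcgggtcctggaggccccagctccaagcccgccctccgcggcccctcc
Cish, RefSeq start: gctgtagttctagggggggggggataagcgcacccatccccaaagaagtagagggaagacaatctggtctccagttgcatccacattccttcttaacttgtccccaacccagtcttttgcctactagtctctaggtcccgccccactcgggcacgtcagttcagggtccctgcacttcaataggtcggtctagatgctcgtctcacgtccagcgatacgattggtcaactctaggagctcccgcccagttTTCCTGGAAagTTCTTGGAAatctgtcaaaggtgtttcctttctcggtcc
Socs3, coding transcript start: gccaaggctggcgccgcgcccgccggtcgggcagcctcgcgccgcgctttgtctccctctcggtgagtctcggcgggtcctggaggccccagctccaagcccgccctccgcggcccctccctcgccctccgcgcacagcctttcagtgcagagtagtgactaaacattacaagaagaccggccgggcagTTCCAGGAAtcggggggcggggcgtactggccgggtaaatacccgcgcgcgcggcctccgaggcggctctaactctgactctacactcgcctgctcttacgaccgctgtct

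In the RefSeq promoter of Socs3 the element TTCTTAGAA lies 154 to 146 bases before the start. Around the coding transcript the element TTCCAGGAA lies 61 to 53 bases before the start. Cish holds TTCCTGGAA at bases 1 to 9 and TTCTTGGAA at bases 12 to 20 counted from its RefSeq start, and 0 elements in the same window around its coding transcript start in NCBIM37. RefSeq gives 8 promoters for the 7 genes, with 2 for Lifr, and those of Lif, Lifr, Il6st, Jak1 and Stat3 hold 0 such elements. Of all 32851 RefSeq promoters, 8.3% hold at least 1 and 0.457% at least 2. The octamer ATGCAAAT, bound by Oct4 and related factors and searched on both strands, is in 0 of the 8 promoters and in 1.74% of all. A match is a description of letters and not a bound site.

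Over the 7 promoters the median log2 ratio of Pontin to GFP reads was 0.21, against 0.34 over 21186 protein-coding promoters with reads in both libraries (SD 0.709). A log2 ratio above 0.58 was seen at 2 of the 7, Jak1 and Cish, and at 34.4% of all promoters. Jak1 had 99 Pontin and 25 GFP reads, a log2 ratio of 0.74 (exact 95% counting interval 0.10 to 1.44). Cish had 63 and 14 reads, a log2 ratio of 0.93 (0.07 to 1.88). Stat3 had 118 and 34 reads and a ratio of 0.55 (interval from -0.01). Socs3 had 74 and 27 reads and a ratio of 0.21, Lif 70 and 28 and a ratio of 0.08, Il6st 47 and 22 and a ratio of -0.15, and Lifr 80 and 39 and a ratio of -0.21, all with intervals that include 0. The ratios of all 7 lay between the 19.8th and the 82.6th percentile of all promoters. Set against the median promoter instead of 0, by scaling to the median ratio, all 7 intervals included 0 (Jak1 -0.24 to 1.10, Cish -0.27 to 1.54).

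Where the start was placed mattered for Socs3 and Cish. Its RefSeq start lies 681 bases downstream of the annotated gene start, and a window set there held 73 Pontin and 16 GFP reads, a log2 ratio of 0.94 (0.15 to 1.83). The RefSeq start of Cish lies 633 bases downstream, with 64 and 18 reads and a ratio of 0.59 (-0.19 to 1.43). That of Il6st lies 10938 bases upstream, with 78 and 37 reads and a ratio of -0.17 (-0.75 to 0.44). At RefSeq starts 3 of the 7 were above 0.58, Socs3, Jak1 and Cish, as were 36.1% of the 14322 protein-coding genes whose RefSeq start was matched in the same way. From the most upstream coding transcript 3 were, as were 34.7% of all promoters, and with each position and strand counted once 2 were, as were 30.7%. With each position and strand counted once, the intervals of Jak1 (-0.07 to 1.33) and Cish (-0.16 to 1.65) included 0, and the ratio of Socs3 at the annotated start was -0.09. Each antibody has 1 library, of 40729076 reads for Pontin and 17185883 for GFP, so no p-value is given.

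**Figure D5:**
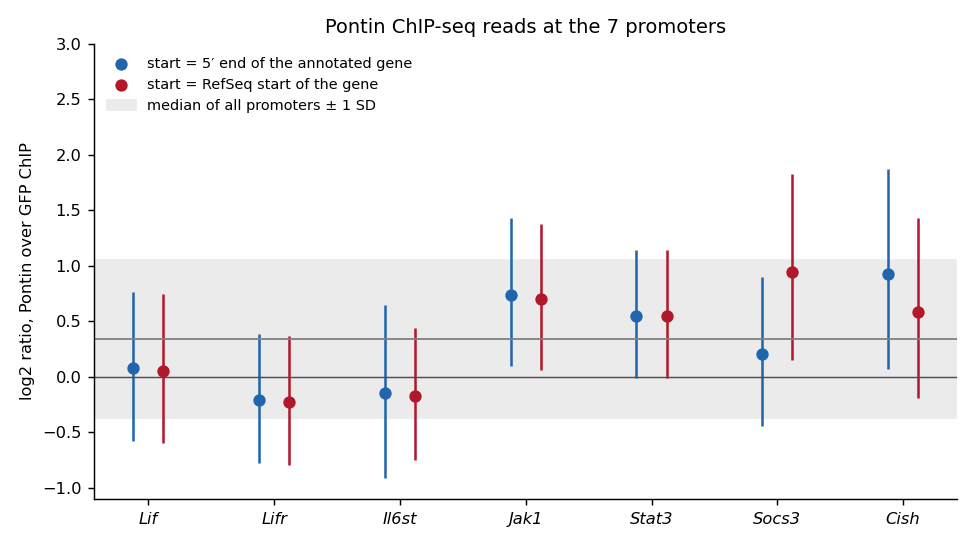
Log2 ratio of Pontin to GFP ChIP-seq reads, scaled by library size, at the promoter of each gene, with exact 95% counting intervals. Blue windows start from the annotated gene and red ones from the RefSeq start. The grey band is the median of all promoters ± 1 SD (0.34 ± 0.709). With the RefSeq start the ratio of Socs3 moves from 0.21 to 0.94 and that of Cish from 0.93 to 0.59, and all points lie within the band.

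The genes whose levels were most like those of a member, by Pearson's r over the 8 libraries on the common scale among 10422 genes with a mean of at least 5 CPM, were Tap1 for Lif (r = 0.993), Kpnb1 for Lifr (0.995), Snx27 for Il6st (0.967), Adamts9 for Jak1 (0.996), Hinfp for Stat3 (0.987) and Itgb3 for Socs3 (0.973). With 8 points that fall into 2 tables and 2 cell lines, many genes reach such values, and they are given as a description. Cish was below the level at which likeness was searched.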

How the data were processed

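mRNA-seq and ChIP-seq libraries were grouped by their labels. The authors deposited CPM (read counts scaled to library size), made per the labels and the methods with TopHat, Bowtie2, HTSeq and edgeR on NCBIM37 with TMM normalisation, in 2 tables normalised separately (different instruments per the supplement). Every CPM was a whole multiple of 1 read within 0.01 read (100% of values). Symbols matched 22337 of 22713 IDs. For ChIP-seq the authors deposited aligned reads, 1 line each with a mapping quality score, and no duplicate removal is seen in them (11.4% of Pontin and 19.3% of GFP reads share position and strand with another). Start sites came from GENCODE vM1 on NCBIM37.

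Members and gene lists were chosen with earlier results of these data known. Single libraries were compared by log2(CPM + 1) for genes above 1 CPM in at least 1 library of a table, with a call past 0.58, and exact Clopper-Pearson 95% intervals on recovered reads, which describe counting error alone because the reads carry no molecular barcodes. For shlinc1253, limma 3.58.1 with trend (R 4.3.3) and Benjamini-Hochberg adjustment was the main test, and edgeR 4.0.16 and DESeq2 1.42.0 were alternatives. Python 3.11.15 with SciPy 1.17.1 was used. On simulated data with 200 of 13407 genes changed 1.5-fold in shlinc1253 against control, limma recovered 53%, edgeR 53.5% and DESeq2 50%. The simulated libraries varied independently, with 1 dispersion for every gene, and only genes with many reads were changed. In the real libraries same-numbered ones deviated together (correlation 0.67). These shares therefore do not give the power for the 7 genes. Named genes were the 7, listed genes that were called in a comparison, Ruvbl1 and Pou5f1, and the genes closest in pattern, of which 1 per member is given here. Klf4, Tfcp2l1, Gbx2 and Socs3 are also named as background, and Lum was named for its zeros. Alternatives were other pseudocounts (0.5 and 3), filters (none and 5 CPM), scalings, thresholds, controls, tools, windows and start sites, and leaving out each shRNA library. Other start sites in the ChIP-seq were added after seeing the data. The lincRNA targeted by the shRNA, Gene Ontology terms and quantitative PCR were not analysed here, and some listed genes that enter the counts are not reported here by name.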

Additional observations from a re-analysis of the deposited data

Results flagged for a closer look

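Stat3, Jak1 and Lifr lay above WT at OHT 3D and below it at OHT 4D. No test of this change of sign was made, since each day has 1 library. Stat3 had log2-fold-changes of 0.35 and -0.15, and neither counting interval includes 0 (0.27 to 0.43 and -0.23 to -0.06). Jak1 had 0.10 and -0.26, and Lifr 0.083 and -0.22, with intervals at OHT 3D that include 0. None of the 6 values passed 0.58.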

How the results depend on the processing

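Of 139 alternative values for counts of calls, levels per length or promoters, 118 stayed within 1.5 times the value reported, 6 were higher and 15 lower. Counts of 0 that stayed 0 are among the 118, also where a setting called no gene at all for shlinc1253. Among values of single genes, 405 counted as unchanged and 52 fell outside the counting interval of the main value. A further 10 changed sign and 2 became called. With a threshold of 1, the 7 genes gave 0 down at OHT 4D, and 1 up and 0 down at Tc 2D. At that threshold the listed genes gave 3 up and 0 down at OHT 3D and again at OHT 4D. At Tc 2D they gave 3 up and 5 down (6.82% and 11.4%). Of all genes, 1.90% were up and 0.929% down at OHT 3D with this threshold, and 2.38% and 1.61% at OHT 4D. At Tc 2D 12.8% of all genes were up and 12.6% down. A pseudocount of 3 gave 3 listed genes up and 1 down at OHT 3D (6.82% and 2.27%), where 3.31% of all genes were up and 3.70% down. With the shRNA controls as control for Tc 2D, 1 of the 7 was up with the deposited CPM and 1 on the common scale. With the deposited CPM 2 listed genes were up (4.55%), where 18.3% of all genes were up and 28.7% down. On the common scale 24.6% of all genes were up. Called values that changed sign with those controls, deposited CPM and common scale in turn, were Socs3 (-0.42 and -0.23), Il6ra (-0.15 and -0.0058), Pias3 (0.27 and 0.45) and Pim1 (0.028 and 0.21), and Jak3 with the deposited CPM (-0.10). What part of this is cell line, lentivirus or table cannot be told apart.

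For shlinc1253, DESeq2 called 1 listed gene up. The replicate numbers are shared by label only, and same-numbered libraries deviated together (correlation 0.67 over 13407 genes). With the replicate block, limma called 2 of the 7 down (Il6st, adjusted p = 0.00791, and Socs3, adjusted p = 0.000585). It called 5 listed genes up and 4 down, and 1960 of all genes (14.6%), 933 of them up and 1027 down. Leaving out 1 library at a time left 0 of the 7 and 0 listed genes called, with Lif between -0.020 and 0.15 (the former without shlinc1253 replicate 2), Il6st between -0.42 and -0.13 (without shlinc1253 replicates 2 and 1), Cish between -0.45 and -0.082 and Lifr between -0.23 and -0.081 (both without shRNA control replicates 1 and 2), Stat3 between -0.14 and -0.011 (without shlinc1253 replicates 1 and 2) and Socs3 between -0.56 (without shRNA control replicate 2) and -0.09 (without shRNA control replicate 1).

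At promoters, 4 of the 7 were above 0.58 within 1 kb either side of the start, where 47.2% of all promoters were, and 1 with scaling by the median ratio, where 17.5% were. With the longest transcript length 2 genes changed places in the order of levels. Low read numbers limit Cish (44 to 91 reads per library) and every promoter ratio (14 to 118 reads in the windows from annotated starts, and as few as 11 within 1 kb either side).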
